A study of Mus musculus with 24 samples.

Results

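The injured (ipsilateral) hippocampus of NEIL2-KO pups was compared with that of pups labelled NEIL1-KO after neonatal hypoxia-ischemia, in which reduced blood flow to a hemisphere is combined with low oxygen to model brain injury around birth. The comparison rested on 8 of the 24 RNA-seq libraries of the series, taken by title: 2 NEIL2-KO libraries at 3 h and 2 at 6 h after the insult, and 2 labelled NEIL1-KO libraries at each of these times. The 4 ipsilateral wild-type (WT) libraries and the contralateral libraries of both knockouts are given beside them where they place a value. All pups were mice on postnatal day 10, all had undergone hypoxia-ischemia, and no library of an unoperated animal was analysed here. The sources used here give neither how each knockout was made nor which part of the gene was removed, nor the strain background or the litters. In the labels, libraries whose titles say NEIL2-KO have the genotype tag NEIL1-KO, and the titles were followed. Each library is 1 replicate of its group, with nothing further stated on the animals behind it, so p-values measure the spread between these libraries.

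Neil1 and Neil2 encode DNA glycosylases that cut oxidized bases out of DNA, the first step of base excision repair. NEIL2 acts preferentially on single-stranded and bubble structures, as they occur during transcription, and NEIL1 also acts on duplex DNA ahead of replication. In the first hours after hypoxia-ischemia the hippocampus goes through oxidative stress and an immediate early and inflammatory gene response. On this postnatal day oligodendrocytes of the rodent brain are only beginning to form myelin.

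Values are size-factor normalized read counts. The 8 libraries held 18814595 to 29252067 reads each. A gene was called at a Benjamini-Hochberg adjusted p under 0.05 in limma with time as a blocking factor, over 18364 genes tested, and every log2 fold change is NEIL2-KO minus labelled NEIL1-KO with its standard error (SE). The labelled tissue was checked against 8 hippocampal markers, all of which were detected. Their summed level was 14484 to 20038 in NEIL2-KO, 10357 to 17953 in labelled NEIL1-KO and 10759 to 19177 in WT, where 6 h replicate 2 was lowest. Labelled NEIL1-KO 6 h replicate 2 stood apart, at 10357. Its ipsilateral group had the largest median SD between replicates (0.23 on the log2 scale, against 0.077 to 0.18 in the other 5 ipsilateral groups). The SD of 2 replicates does not say which of them deviates. The calls, and many of the lists that shift with labelled NEIL1-KO 6 h replicate 2, are given with and without that library. Xist, transcribed from the inactive X chromosome, stood at 10112 in NEIL2-KO 6 h replicate 2 and, in labelled NEIL1-KO, at 14054 in 3 h replicate 2 and 17968 in 6 h replicate 2, and at no more than 14.2 in the other 5 libraries. The 10 choroid plexus markers summed to between 464 and 28297 in NEIL2-KO, to between 316 and 21323 in labelled NEIL1-KO and to between 381 and 662 in WT. Labelled NEIL1-KO 6 h replicate 1 alone held high levels of pineal and photoreceptor genes, a list drawn up after these values were seen, with Tph1 at 553, Rbp3 at 720 and Gnb3 at 403, against at most 23.9, 7.58 and 9.05 in the other 11 ipsilateral libraries.

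The targeted genes were read first. Neil2 was nearly absent from NEIL2-KO, at 0 and 0.945 normalized counts at 3 h and 3.02 and 0 at 6 h, against 26.9 and 23.5 at 3 h and 16.6 and 28.7 at 6 h in labelled NEIL1-KO. Summed over libraries, 5 Neil2 reads were counted in NEIL2-KO and 102 in labelled NEIL1-KO, or 4.45% of the labelled NEIL1-KO level (exact 95% counting interval 1.41% to 10.7%). The Neil2 groups did not overlap (log2 fold change -3.87 ± 0.51, limma adjusted p = 0.0342, and exact two-sided permutation p = 0.0286, the smallest that 4 against 4 allows). Neil1 did not mirror this. It stood at 133 and 129 at 3 h and 117 and 97.4 at 6 h in NEIL2-KO, against 153 and 146 at 3 h and 115 and 155 at 6 h in the libraries labelled NEIL1-KO. The Neil1 groups overlapped, and the difference was not called (log2 fold change -0.25 ± 0.14, limma adjusted p = 0.542, exact permutation p = 0.143). WT libraries held 96.1 to 123 of Neil1, so the libraries labelled NEIL1-KO were not low in Neil1 against either genotype, and every direction below refers to the label alone. Reads outside a removed part would not show a deletion.

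Of the 18364 genes, 13 (0.0708%) were called, 10 higher in NEIL2-KO (0.0545%) and 3 lower (0.0163%). The 10 were Mobp, Mbp, Cntnap1, Scn2b, Htr3a, Kirrel2, Ndn, Cbl, Arhgap33os and Gm8417, and the 3 were Neil2, Esd and Gm16867. Without labelled NEIL1-KO 6 h replicate 2 the count was 31 (0.169%), 22 higher (0.12%) and 9 lower (0.049%), and all 13 were among the 31. Leaving out labelled NEIL1-KO 3 h replicate 2 gave 13 calls, 8 of them among the 13. Leaving out another single library gave 4 calls without labelled NEIL1-KO 3 h replicate 1, 3 without labelled NEIL1-KO 6 h replicate 1, 2 without NEIL2-KO 3 h replicate 1 or 6 h replicate 1, and 1 without NEIL2-KO 3 h replicate 2 or 6 h replicate 2. With a term for high Xist 2 genes were called, and with a term for choroid plexus markers 6. None of the 13 changed its direction over both times in any alternative run.

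Genes of the myelin sheath were higher in NEIL2-KO. Mobp, a basic protein of compact central myelin, had the highest fold change among the called genes with a mean level over 50. Its promoter is shown with that of Mag because both are myelin genes with an entry in the RefSeq promoter table (GRCm38.p6). Each line gives the 250 bases before the annotated start, 5′ to 3′ on the gene's own strand. Capitals mark matches on either strand to ACAAAG, the core bound by SOX family factors such as the oligodendrocyte factor SOX10, or to the E-box CANNTG, bound by factors of the OLIG type. The Mobp line covers chr9:120149492-120149741 (plus strand), and the Mag line covers chr7:30914864-30915113 (minus strand), the first of the 3 starts listed for Mag.
Mobp: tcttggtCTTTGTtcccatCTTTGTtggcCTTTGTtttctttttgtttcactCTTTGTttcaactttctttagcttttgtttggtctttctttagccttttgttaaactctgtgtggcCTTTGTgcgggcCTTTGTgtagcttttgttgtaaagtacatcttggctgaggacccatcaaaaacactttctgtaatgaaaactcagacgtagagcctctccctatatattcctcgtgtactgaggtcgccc
Mag: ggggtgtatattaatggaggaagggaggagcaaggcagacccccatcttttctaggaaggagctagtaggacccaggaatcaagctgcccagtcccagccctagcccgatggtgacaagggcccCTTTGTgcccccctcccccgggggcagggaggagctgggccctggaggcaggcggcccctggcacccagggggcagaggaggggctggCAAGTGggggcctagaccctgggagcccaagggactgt
The Mobp stretch held 6 SOX core matches and 0 E-box matches, and the Mag stretch held 1 of each, with no overlap between the motifs. Among 32851 promoter stretches of this length 16.5% held the SOX core and 66.2% the E-box, so a match describes the letters and is not evidence of binding.

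Mobp stood at 824 and 847 normalized counts at 3 h and 599 and 383 at 6 h in NEIL2-KO, against 119 and 68.4 at 3 h and 42.0 and 145 at 6 h in labelled NEIL1-KO. The lowest NEIL2-KO library thus lay above the highest labelled NEIL1-KO library (log2 fold change 2.90 ± 0.36, limma adjusted p = 0.0342, and 3.31 ± 0.21 without labelled NEIL1-KO 6 h replicate 2). Mbp, the myelin basic protein that holds the membrane layers together, stood at 7597 and 8073 at 3 h and 7896 and 5411 at 6 h in NEIL2-KO, against 3553 and 2564 at 3 h and 2106 and 3365 at 6 h in labelled NEIL1-KO. The Mbp groups did not overlap either (1.34 ± 0.18, limma adjusted p = 0.0357, and 1.48 ± 0.15 without the library that stood apart). Genes ranked by fold change were named only where the groups did not overlap. Non-overlap is therefore no added support for Mobp, Mbp or the other genes named by that rank. When each of the 8 libraries was left out in turn, Mobp and Mbp were each called in 1 fit only, that without labelled NEIL1-KO 6 h replicate 2. In 13 other alternatives Mobp was called in 11 and Mbp in 8. Mbp overlaps predicted genes in the annotation, and whether counting used strand was not stated.

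Mag was called when that library was left out. Mag, the myelin-associated glycoprotein of the innermost myelin layer, stood at 504 and 559 at 3 h and 520.0 and 299 at 6 h in NEIL2-KO, against 208 and 82.9 at 3 h and 56.0 and 176 at 6 h in labelled NEIL1-KO. Its log2 fold change was 1.99 ± 0.38 (limma adjusted p = 0.142) with 8 libraries and 2.32 ± 0.31 (limma adjusted p = 0.0229) with 7, and the adjusted p ran from 0.0145 to 0.55 over the alternatives. The Mag groups did not overlap, and within labelled NEIL1-KO the higher values were those of 3 h replicate 1 and 6 h replicate 2.

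The early lineage genes did not follow the myelin genes. Of the 8 oligodendrocyte lineage markers, 4 had an unadjusted p under 0.05 and were higher in NEIL2-KO, with 0 lower, where 6.77% of all genes tested were higher and 3.88% lower by that rule. Among the 4 were Mbp, Mag and Mog (0.62 ± 0.22, limma adjusted p = 0.405), and 1 of the 4 was called with 8 libraries and 3 with 7. Pdgfra and Cspg4, which mark oligodendrocyte precursors, had log2 fold changes of -0.18 ± 0.20 and -0.02 ± 0.23. Olig1 and Olig2, transcription factors of the whole lineage, had 0.06 ± 0.23 and 0.11 ± 0.17, and none of these 4 was called with or without the library that stood apart. In bulk tissue a smaller number of cells of a type and less RNA per cell cannot be told apart.

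**Figure D1:**
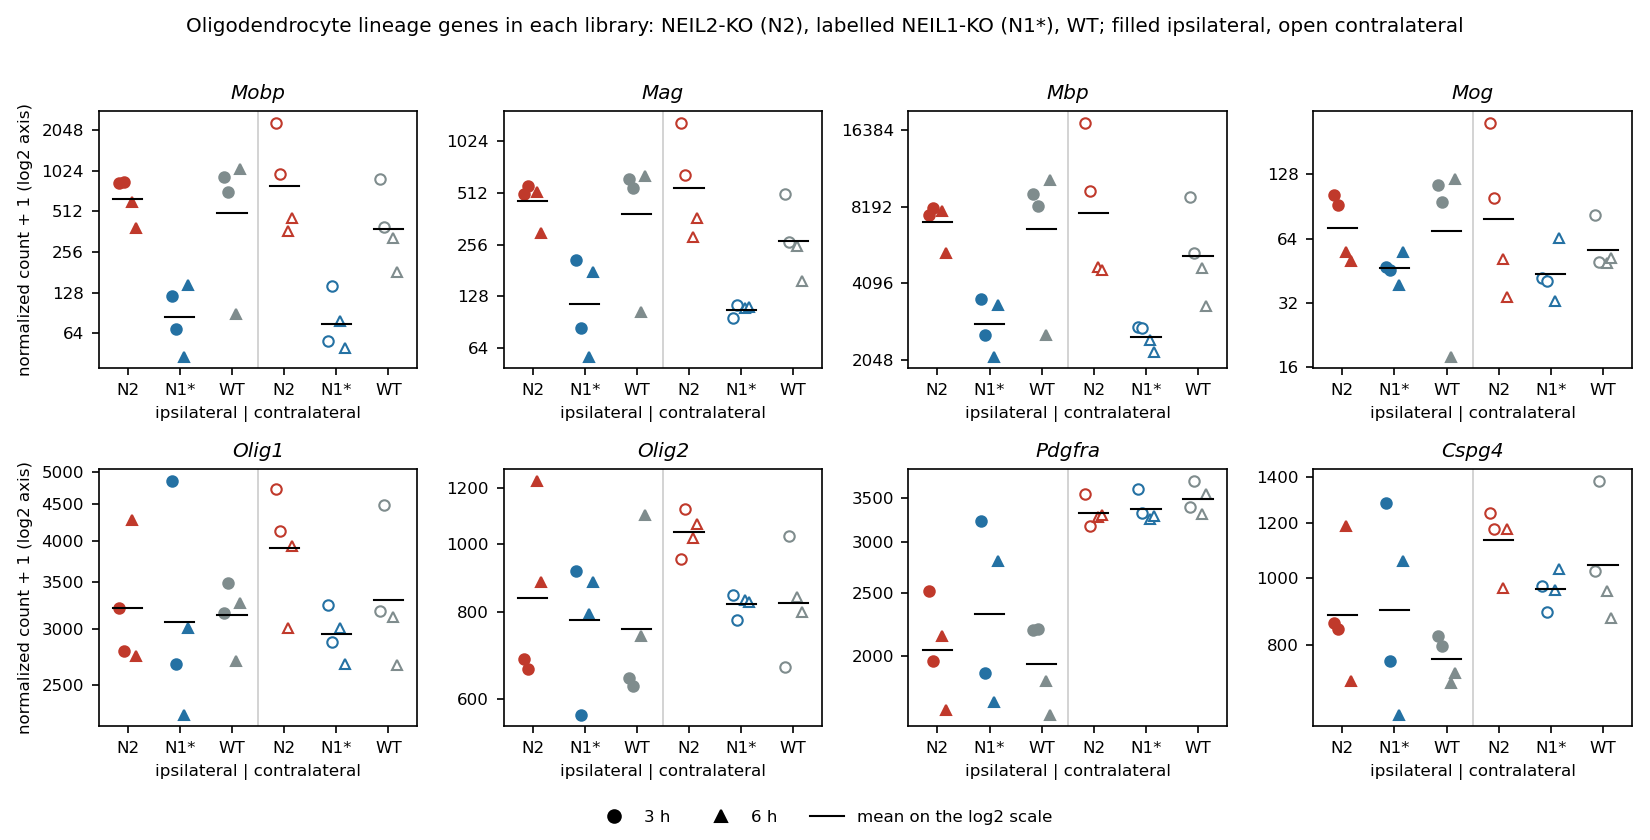
Normalized counts plus 1 (log2 axis) of 8 oligodendrocyte lineage genes in each of the 24 libraries, by genotype on the ipsilateral (filled) and contralateral (open) side, with circles for 3 h, triangles for 6 h and a bar at the mean on the log2 scale. Mobp, Mag and Mbp lie higher in NEIL2-KO than in labelled NEIL1-KO on both sides without overlap, while Olig1, Olig2, Pdgfra and Cspg4 overlap on the ipsilateral side, and 1 WT ipsilateral library at 6 h lies low in the myelin genes.

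The same myelin genes were higher on the contralateral side. Mobp stood at 2302 and 972 at 3 h and 367 and 458 at 6 h in contralateral NEIL2-KO, against 55.5 and 143 at 3 h and 78.4 and 48.8 at 6 h in contralateral labelled NEIL1-KO. The contralateral log2 fold changes in the 24-library limma fit were 3.38 ± 0.58 for Mobp, 2.35 ± 0.46 for Mag and 1.62 ± 0.31 for Mbp, all 3 called (limma adjusted p from 0.00542 for Mobp to 0.0145 for Mag). In contralateral NEIL2-KO each of the 3 was highest in 3 h replicate 1. In WT ipsilateral libraries Mobp stood at 917 and 711 at 3 h and 88.1 and 1055 at 6 h, so 3 WT libraries lay among or above NEIL2-KO and the 6 h replicate 1 lay within the labelled NEIL1-KO range. Against WT on the ipsilateral side, Mobp had a log2 fold change of 0.35 ± 0.58 in NEIL2-KO (limma adjusted p = 0.949) and of -2.55 ± 0.58 in labelled NEIL1-KO (limma adjusted p = 0.0143).

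Cntnap1, Scn2b and Htr3a were also higher in NEIL2-KO. Cntnap1, which encodes the Caspr protein of the junction between axon and myelin loops, stood at 2121 and 1744 at 3 h and 1114 and 1222 at 6 h in NEIL2-KO, against 780.2 and 1128 at 3 h and 619 and 505 at 6 h in labelled NEIL1-KO. Its 4-library ranges overlapped, since levels were lower at 6 h in both genotypes, while within each time NEIL2-KO lay above labelled NEIL1-KO (1.05 ± 0.13, limma adjusted p = 0.0342). It overlaps Ccr10 in the annotation, and it was named after its values were seen. Scn2b, the beta-2 subunit of voltage-gated sodium channels, stood at 1565 and 1163 at 3 h and 696 and 792 at 6 h in NEIL2-KO, against 457 and 539 at 3 h and 364 and 233 at 6 h in labelled NEIL1-KO. The Scn2b groups did not overlap (1.39 ± 0.16, limma adjusted p = 0.0286). Htr3a, a subunit of the serotonin-gated ion channel found on a class of interneurons, stood at 157 and 148 at 3 h and 214 and 178 at 6 h in NEIL2-KO, against 34.8 and 48.2 at 3 h and 34.1 and 15.7 at 6 h in labelled NEIL1-KO. Every NEIL2-KO library held more than 3 times the Htr3a level of the highest labelled NEIL1-KO library (2.44 ± 0.30, limma adjusted p = 0.0342).

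Without labelled NEIL1-KO 6 h replicate 2 further neuronal genes were called. Gad2, which makes the transmitter GABA, stood at 3562 and 3177 at 3 h and 2670 and 2594 at 6 h in NEIL2-KO, against 2095 and 1995 at 3 h and 1923 and 1082 at 6 h in labelled NEIL1-KO. It reached 0.61 ± 0.09 with 7 libraries (limma adjusted p = 0.0328) and 0.79 ± 0.16 with 8 (limma adjusted p = 0.165). Lynx1, a modulator of nicotinic acetylcholine receptors (0.88 ± 0.12), Vamp1, a vesicle fusion protein (0.68 ± 0.11), and Lgi3, a secreted leucine-rich repeat protein (0.80 ± 0.12), were also called with 7 libraries. Fam107a, an actin-binding stress-responsive gene, was called at 1.01 ± 0.12 and Pts, an enzyme of tetrahydrobiopterin synthesis, at 1.04 ± 0.12. Among lower genes, Draxin, an axon guidance protein, had -0.91 ± 0.11, Cd24a, a surface glycoprotein of immature neurons, had -0.63 ± 0.08, and St8sia2, which adds polysialic acid to NCAM, had -0.71 ± 0.11. Ppp1r3e, a glycogen-targeting phosphatase subunit, had -0.98 ± 0.13 with 7 libraries and -0.68 ± 0.24 with 8.

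Kirrel2, Ndn and Cbl were higher in NEIL2-KO with tight values. Kirrel2, an adhesion protein related to nephrin, stood at 122 and 147 at 3 h and 135 and 148 at 6 h in NEIL2-KO, against 46.0 and 37.0 at 3 h and 35.9 and 37.0 at 6 h in labelled NEIL1-KO (1.80 ± 0.16, limma adjusted p = 0.00664). The 2 ranges lay far apart, and WT stood with labelled NEIL1-KO at 35.4 to 70.3. Ndn, the imprinted growth suppressor necdin, stood at 8350 and 8427 at 3 h and 8644 and 8926 at 6 h in NEIL2-KO, against 5122 and 4648 at 3 h and 4040 and 3822 at 6 h in labelled NEIL1-KO (0.97 ± 0.10, limma adjusted p = 0.0213). WT held 8511 to 9649 of Ndn, with NEIL2-KO. Cbl, a ubiquitin ligase that turns down receptor tyrosine kinases, stood at 1627 to 1852 in NEIL2-KO and 777 to 1069 in labelled NEIL1-KO, with WT at 1680 to 1812 (0.93 ± 0.11, limma adjusted p = 0.0342). Kirrel2 overlaps Gm45979 and Ndn overlaps Gm32061 in the annotation.

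Esd and Gm16867 were lower in NEIL2-KO, and both lie on chromosome 14 with Neil2. Esd, esterase D, stood at 444 and 457 at 3 h and 343 and 438 at 6 h in NEIL2-KO, against 883 and 721 at 3 h and 796 and 912 at 6 h in labelled NEIL1-KO (-0.98 ± 0.12, limma adjusted p = 0.0342). WT held 744 to 844 of Esd, with labelled NEIL1-KO. Gm16867, a predicted gene, stood at 8.19 and 3.78 at 3 h and 5.28 and 4.10 at 6 h in NEIL2-KO, against 158 and 105 at 3 h and 132 and 157 at 6 h in labelled NEIL1-KO, and at 5.68 to 10.4 in WT. Its log2 fold change was -4.49 ± 0.27 (limma adjusted p = 4.31e-04), and it had 26 summed reads in NEIL2-KO and 597 in labelled NEIL1-KO, a ratio of 0.0395 (exact 95% counting interval 0.0256 to 0.0585). It was called without each of the 8 libraries in turn and in each of 13 other alternatives. Gm16867 overlaps Entpd4, a nucleoside diphosphatase of the Golgi and lysosomes, and Entpd4b is a near-identical copy, so their reads may be shared. Entpd4 stood at 390.2 to 633 in NEIL2-KO and 647 to 1014 in labelled NEIL1-KO, with -0.81 ± 0.13 (limma adjusted p = 0.0832) with 8 libraries and -0.88 ± 0.13 (limma adjusted p = 0.0307) with 7.

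The remaining 2 called genes and Adamdec1, called with 7 libraries, rested on few reads, and their fitted fold changes depend on the added pseudocount. Arhgap33os had 152 pooled reads in NEIL2-KO and 4 in labelled NEIL1-KO, a ratio of 34.5 (exact 95% counting interval 13.2 to 128). Gm8417 had 92 in NEIL2-KO and 9 in labelled NEIL1-KO, a ratio of 9.28 (4.68 to 20.9). Adamdec1, a metalloprotease-like gene, had 88 in NEIL2-KO and 7 in labelled NEIL1-KO, a ratio of 11.4 (5.31 to 29.2). WT libraries held at most 3.46 normalized counts of each, so NEIL2-KO was the group that stood out in all 3.

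**Figure D2:**
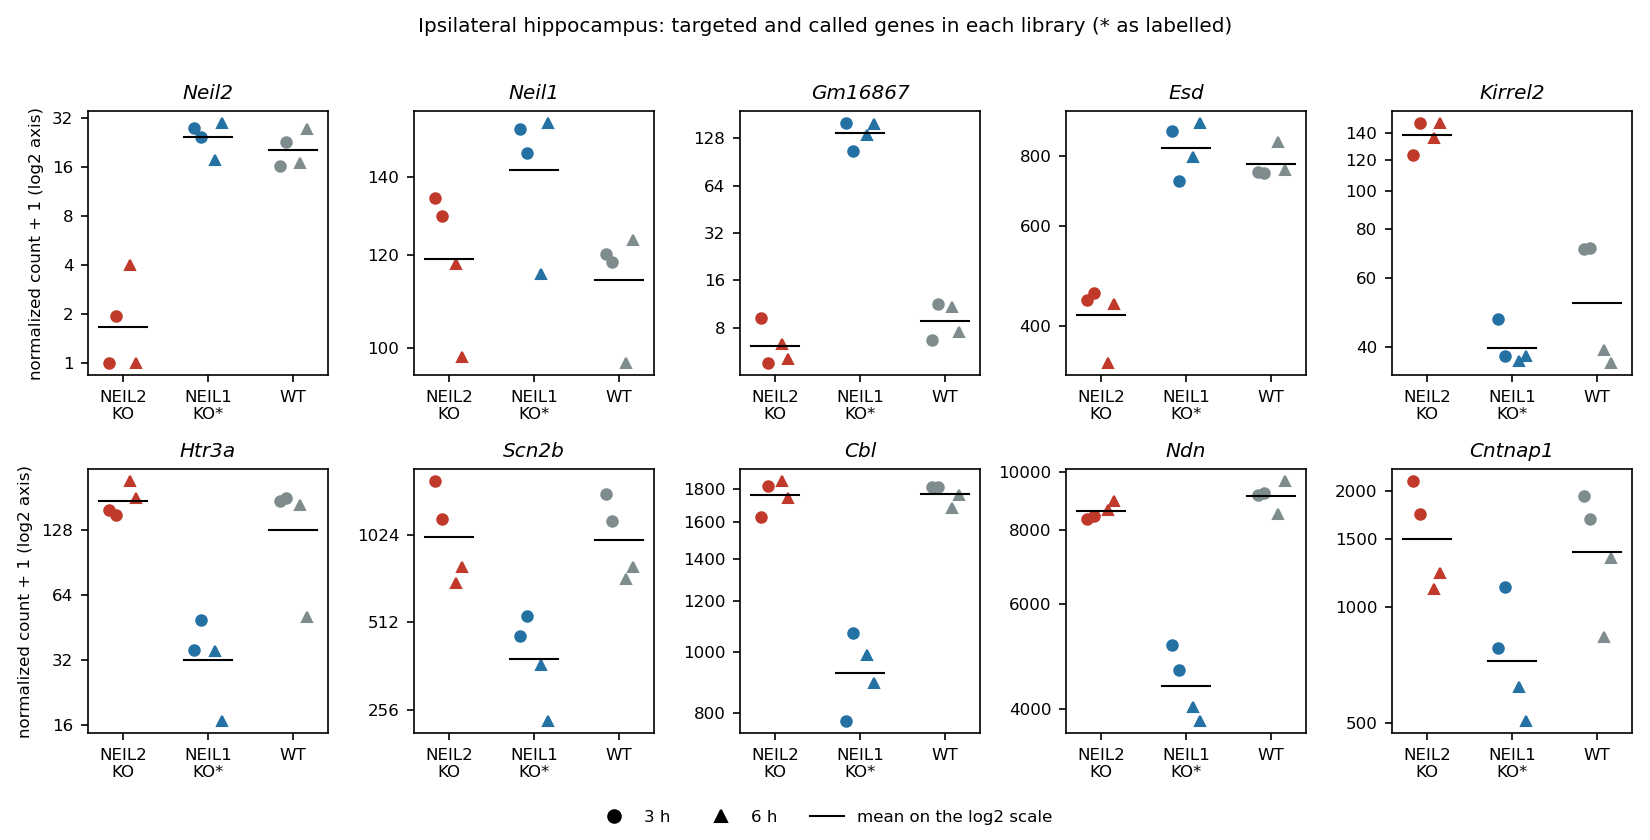
Normalized counts plus 1 (log2 axis) of the targeted genes and 8 called genes in the 12 ipsilateral libraries, with NEIL2-KO, labelled NEIL1-KO and WT from left to right, circles for 3 h, triangles for 6 h and a bar at the mean on the log2 scale. Neil2 and Esd are low in NEIL2-KO alone, Gm16867 is high in labelled NEIL1-KO alone, and Htr3a, Scn2b, Cbl, Ndn and Cntnap1 lie lower in labelled NEIL1-KO, at 505 to 1128 for Cntnap1 against 1114 to 2121 in NEIL2-KO.

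The WT level lay nearer to NEIL2-KO than to labelled NEIL1-KO on the log2 scale for 8 of the 13 called genes, and for 23 of the 31 called with 7 libraries. The share over all genes tested was not computed, so these counts do not show which knockout departs from WT in general. The 5 exceptions among the 13 were Neil2, Esd, Kirrel2, Arhgap33os and Gm8417. Against WT on the ipsilateral side, Esd had -0.88 ± 0.10 in NEIL2-KO (limma adjusted p = 5.91e-04) and 0.09 ± 0.10 in labelled NEIL1-KO (limma adjusted p = 0.57). Cbl had -0.01 ± 0.11 in NEIL2-KO (limma adjusted p = 0.995) and -0.93 ± 0.11 in labelled NEIL1-KO (limma adjusted p = 2.35e-04). These comparisons share the WT libraries with each other and the knockout libraries with the main one.

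All 13 called genes had the same sign contralaterally, where 476 of 18364 genes (2.59%) were called between the knockouts in the 24-library fit, and 12 of the 13 were among these. The ipsilateral count in that same fit was 405 (2.21%). The exception was Cntnap1 (0.47 ± 0.14, limma adjusted p = 0.0828). With 7 libraries 31 of 31 had the same sign contralaterally and 27 were called there, and Lynx1, Gad2 and Vamp1 were the other exceptions. The contralateral fit and the test between sides given here held no term for the pup. Only an alternative run took the sides of a pup to share a replicate number, which the labels do not state outright. If both sides come from the same pups, the contralateral agreement is not independent of the ipsilateral calls. The difference between knockouts was not called as unequal between the sides for any gene in limma (1844, or 10.0%, at an unadjusted p under 0.05) or in edgeR, and DESeq2 called 3. Without labelled NEIL1-KO ipsilateral 6 h replicate 1 limma called 801 genes here, and without 3 h replicate 2 of that group 1. Kcnmb2, a potassium channel subunit, had the smallest p, with an ipsilateral-minus-contralateral difference of 1.10 ± 0.21 (limma adjusted p = 0.467). Its levels were 73.2 to 101 in NEIL2-KO and 50.9 to 79.6 in labelled NEIL1-KO ipsilaterally, and 62.3 to 75.7 in NEIL2-KO and 93.3 to 121 in labelled NEIL1-KO contralaterally, where the difference was called in the other direction (-0.66 ± 0.15, limma adjusted p = 0.0268). Htr2c, a serotonin receptor of choroid plexus and neurons, had 1.05 ± 0.20, and Tmem119, a microglial marker, had -2.11 ± 0.44, neither of them called.

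At 3 h 14 genes (0.0762%) were called and at 6 h 223 (1.21%), in a limma fit of all 24 libraries that shares 1 spread. Of the 13 genes, 7 were called at 3 h (Neil2, Esd, Gm16867, Kirrel2, Scn2b, Ndn and Cbl) and 11 at 6 h (6 without labelled NEIL1-KO 6 h replicate 2). All 13 had the same sign at both times. They were called in the same libraries over both times, so this agreement follows largely from the selection and is no added support. Without labelled NEIL1-KO 6 h replicate 2 the 6 h count fell to 28 (0.152%), and without replicate 1 it was 3675, while leaving out NEIL2-KO 6 h replicate 1 or 2 gave 12 and 16. At 3 h the count was 0 without labelled NEIL1-KO replicate 1 and 1 without either NEIL2-KO replicate. A test of the difference between the times called no gene in limma (1789, or 9.74%, at an unadjusted p under 0.05) or in edgeR, and 32 in DESeq2. That test called 1040 genes without labelled NEIL1-KO 6 h replicate 1, and without replicate 2 it called 2 (0.0109%), Tph1 and Sag, both high in that replicate 1 alone. Nphs1, which encodes nephrin, had the smallest p (log2 change of the difference 3.02 ± 0.55, limma adjusted p = 0.225). It stood at 117 and 134 at 3 h and 391 and 448 at 6 h in NEIL2-KO, against 541 and 352 at 3 h and 178 and 179 at 6 h in labelled NEIL1-KO, so its order turned round between the times without passing the threshold.

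**Figure D3:**
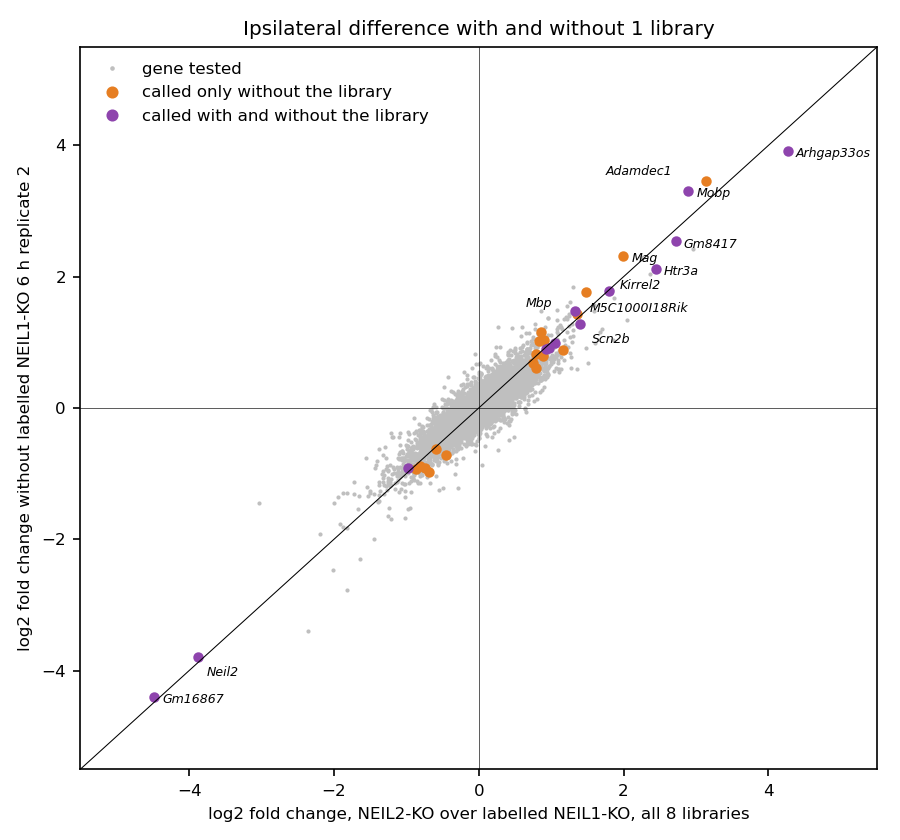
Log2 fold change of each of 18364 genes between NEIL2-KO and labelled NEIL1-KO with all 8 ipsilateral libraries (x axis) against the value without labelled NEIL1-KO 6 h replicate 2 (y axis), with 13 genes called in both fits in purple and 18 called only without that library in orange. Most called genes lie close to the diagonal, with Mag at 1.99 and 2.32 and Gm16867 at -4.49 and -4.40.

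The called genes are given by chromosome as a description, with no test. Chromosome 9, which carries Neil1, held 4 of the 13 called genes (Mobp, Htr3a, Scn2b and Cbl) and 5.39% of the genes tested. Chromosome 14, which carries Neil2, held another 4 (Neil2, Esd, Gm16867 and Gm8417) and 4.0% of the genes tested. Chromosome 7 held 3, namely Kirrel2, Arhgap33os and Ndn, among 7.55% of the genes tested. With 7 libraries chromosome 9 held 7 of 31 called genes, all higher in NEIL2-KO, and chromosome 14 held 11, of which 5 were higher and 6 lower. In the 24-library fit, chromosomes 9 and 14 held 38 each of the 405 called genes, and chromosomes 7 and 11 held 34 each. Within 10 Mb of Neil2, counting Neil2 itself, 2 of 227 genes tested were lower, where 0.0163% of all genes were, and with 7 libraries 5 were lower (also Entpd4, Entpd4b and Ppp1r3e) and 2 higher (Lgi3 and Adamdec1), where 0.049% of all genes were lower and 0.12% higher. Within 10 Mb of Neil1, 1 of 221 genes was higher (Htr3a), where 0.0545% of all genes were, and with 7 libraries 3 were (also Nxpe4 and Pts), where 0.12% were. Positions were used for neighbourhood only, from an annotation of an earlier build than that of the counts, and whether linked strain differences take part was not tested.

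**Figure D4:**
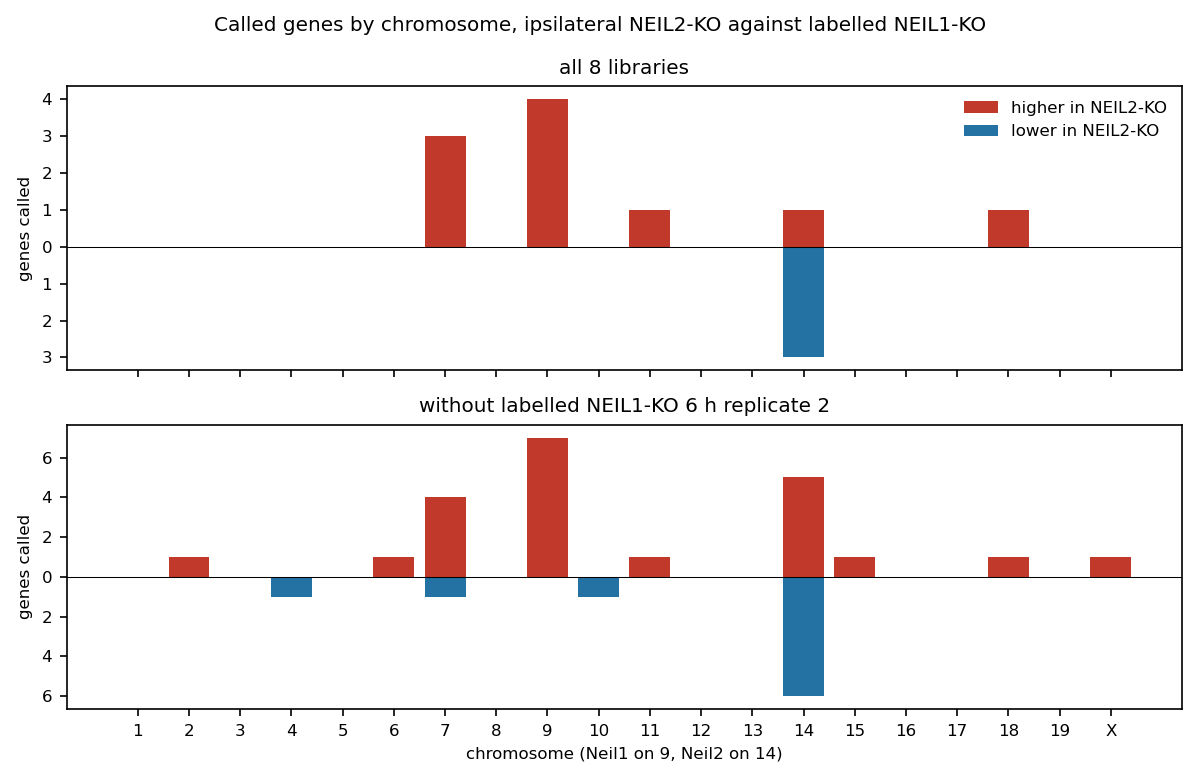
Number of genes called by chromosome, with genes higher in NEIL2-KO above the line and lower ones below it, for all 8 libraries (top) and without labelled NEIL1-KO 6 h replicate 2 (bottom). Chromosomes 9 and 14 hold 4 of 13 genes each in the top panel, and 7 and 11 of 31 in the bottom panel.

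The gene lists describe the wider pattern, which lay mostly below the threshold for single genes. Over all genes the median log2 fold change was 0.02 with 8 libraries, 0.01 with 7, and 0.02 at 3 h and at 6 h. At an unadjusted p under 0.05, 6.77% of genes were higher and 3.88% lower with 8 libraries, and 5.39% and 3.1% with 7. Glutamate synapse genes had 11 of 23 members higher at an unadjusted p under 0.05 and 0 lower, with a median of 0.32, and 8 of 23 higher with a median of 0.18 with 7 libraries, and none was called in either. Slc17a7, the vesicular glutamate transporter of excitatory neurons, had 0.86 ± 0.21 and Camk2a, a synaptic kinase, 0.82 ± 0.24. GABA signalling genes had 9 of 17 higher and 0 lower (median 0.30), with 6 of 17 higher and a median of 0.22 with 7 libraries, and Gad2 was the 1 member called with 7 libraries. Gad1, the other GABA-making enzyme, stood at 3864 to 4345 in NEIL2-KO and 2247 to 3359 in labelled NEIL1-KO (0.49 ± 0.11, limma adjusted p = 0.211). Neuron markers had 7 of 12 higher and 0 lower (median 0.41) with 8 libraries and 7 higher and 1 lower, Tubb3, with 7 (median 0.28), with Eno2 at 0.64 ± 0.15 and Snap25 at 0.62 ± 0.14. Rbfox3, a nuclear marker of mature neurons, had 0.21 ± 0.15 and, with 7 libraries, 0.02 ± 0.08. The summed level of the neuron markers was 126563 to 173367 in NEIL2-KO, 81802 to 150055 in labelled NEIL1-KO and 147624 to 176843 in WT, the lowest of all being labelled NEIL1-KO 6 h replicate 2.

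Of the lists for energy metabolism and the circadian clock, no member was lower at an unadjusted p under 0.05. By that rule 6.77% of all genes tested were higher and 3.88% lower, and 5.39% and 3.1% with 7 libraries. Oxidative phosphorylation genes had 7 of 20 higher and 0 lower (median 0.15), among them Sdha of complex II at 0.26 ± 0.08. With 7 libraries 4 of these 20 were higher (median 0.14). Hypoxia and glycolysis genes had 5 of 19 higher and 0 lower (median 0.05, and 0.11 with 7 libraries), with Aldoa, a glycolytic aldolase, at 0.37 ± 0.10 and Bnip3, a mitochondrial protein induced by hypoxia, at 0.35 ± 0.09. Circadian clock genes had 6 of 17 higher and 0 lower (median 0.32), including Nr1d1, which encodes the clock repressor REV-ERB alpha, at 0.54 ± 0.17. With 7 libraries 7 of these 17 were higher (median 0.25). No member of these 3 lists was called with 8 or with 7 libraries.

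Cell cycle genes had lower values, with a median of -0.47. At an unadjusted p under 0.05, 13 of 19 were lower and 0 higher, where 3.88% of all genes tested were lower. None was called with 8 or 7 libraries. Top2a, a topoisomerase of dividing cells, stood at 251 and 252 at 3 h and 332 and 269.5 at 6 h in NEIL2-KO, against 448 and 309 at 3 h and 409 and 625 at 6 h in labelled NEIL1-KO (-0.66 ± 0.17, limma adjusted p = 0.303). Its groups overlapped, and 625 belonged to the library that stood apart. Of the 19 members, 4 did not overlap between the groups and were lower in NEIL2-KO, beside 1.9% of all genes tested. With 7 libraries 8 of 19 were lower at an unadjusted p under 0.05 (median -0.36), where 3.1% of all genes were.

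In the next lists, higher and lower again mean an unadjusted p under 0.05. Over all genes tested 6.77% were higher and 3.88% lower, and 5.39% and 3.1% with 7 libraries. Immediate early genes, which switch on without new protein synthesis, had 4 of 25 higher and 0 lower (median 0.38). Their smallest p-values were those of Bdnf (0.70 ± 0.25), Ier2, Arc and Fosb. The median was 0.24 with 7 libraries, and split by time it was -0.0025 at 3 h and 0.83 at 6 h. Cytokine, chemokine and NF-kB genes had 5 of 23 higher and 0 lower (median 0.26), among them the chemokine Ccl4 at 332 to 1134 in NEIL2-KO and 215 to 844 in labelled NEIL1-KO, ranges that overlapped. Of these 23 genes, 3 were higher with 7 libraries (median 0.23). Interferon response genes had 0 of 20 higher and 3 lower (median -0.28), namely Gbp3, Bst2 and Irf7. With 7 libraries 1 was lower (median -0.16), and the median was 0.05 at 3 h and -0.63 at 6 h. Heat shock genes had 2 of 16 higher and unfolded protein and integrated stress response genes had 1 higher and 1 lower of 18 (median 0.09, and 0.02 with 7 libraries). Reactive astrocyte genes had 0 of 16 higher and 1 lower (median -0.22, and -0.12 with 7 libraries). The heat shock, stress response and reactive astrocyte counts lay near the shares over all genes. No member of these 6 lists was called over both times with 8 or with 7 libraries.

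Base excision repair genes had 1 of 22 lower at an unadjusted p under 0.05, Neil2 itself, and 0 higher (median -0.05, and -0.12 with 7 libraries). Over all genes tested 3.88% were lower and 6.77% higher. The other glycosylase genes were not called: Neil3 had -0.44 ± 0.23, Ogg1, which removes 8-oxoguanine, had -0.21 ± 0.15, and Nthl1 had -0.24 ± 0.20. Parp1, the break sensor, had 0.17 ± 0.12 and Polb, the gap-filling polymerase, 0.03 ± 0.09. The summed level of the list was 7337 to 7980 in NEIL2-KO and 6899 to 8075 in labelled NEIL1-KO.

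**Figure D5:**
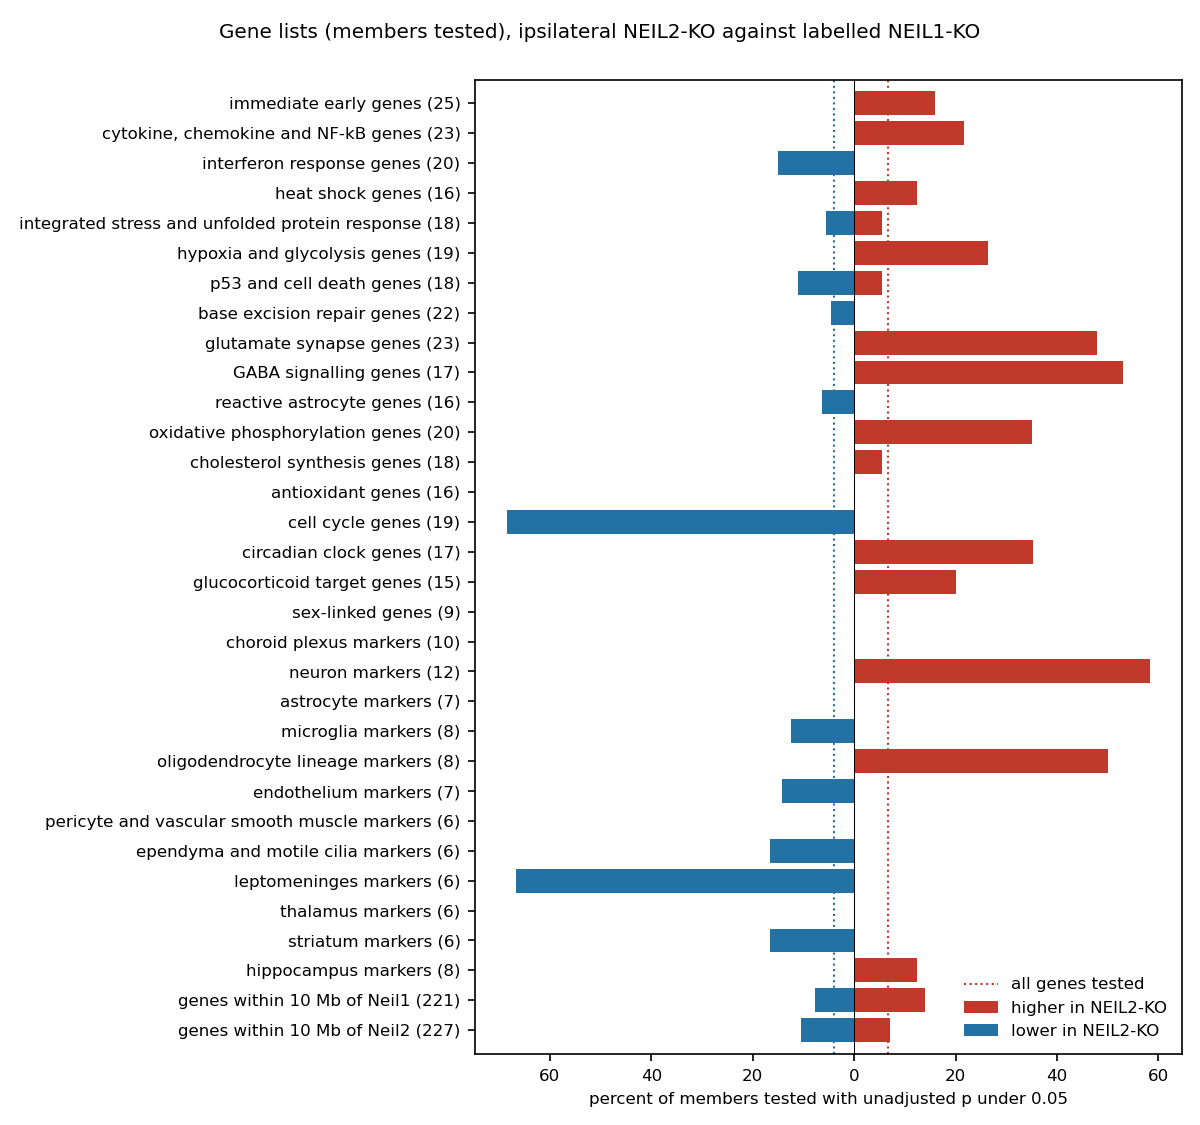
Percent of the members tested in each list (number in brackets) with an unadjusted p under 0.05, higher in NEIL2-KO to the right and lower to the left, with dotted lines at the share over all genes tested (6.77% higher and 3.88% lower). Neuron, GABA, glutamate and oligodendrocyte lists reach to the right, and cell cycle genes (13 of 19) and leptomeninges markers (4 of 6) to the left.

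Markers of cells outside the hippocampus differed between libraries alongside these lists. Leptomeninges markers had 4 of 6 lower in NEIL2-KO at an unadjusted p under 0.05 and 0 higher (median -0.87). By that rule 3.88% of all genes tested were lower. With 7 libraries 3 of these markers were lower (median -0.70), and none was called in either fit. Their summed level was 3163 to 7008 in NEIL2-KO, 5069 to 10534 in labelled NEIL1-KO and 3694 to 4601 in WT, highest in labelled NEIL1-KO 6 h replicate 2. Col1a1, a fibrillar collagen chain, stood at 819 to 1966 in NEIL2-KO and 1501 to 3562 in labelled NEIL1-KO (-1.0 ± 0.30, limma adjusted p = 0.34). The 10 choroid plexus markers had a median of -1.05, with 0 members past an unadjusted p of 0.05, and of -0.53 with 7 libraries. Split by time, all 10 had higher values in NEIL2-KO at 3 h (median 0.78) and 9 had lower ones at 6 h (median -2.50). Their sums at 3 h, by replicate, were 464 and 28297 in NEIL2-KO and 4371 and 316 in labelled NEIL1-KO, so 1 NEIL2-KO library held the high level. At 6 h they were 1093 and 811 in NEIL2-KO and 12345 and 21323 in labelled NEIL1-KO. The 4 blood markers had a median of -0.38, and of 0.03 with 7 libraries, and summed to 11521 to 20142 in NEIL2-KO and 10416 to 50084 in labelled NEIL1-KO. The 7 astrocyte markers had a median of -0.15 and the 8 microglia markers -0.11, with 0.02 and 0.22 with 7 libraries. The part of such tissue in the neuronal, cell cycle and myelin differences was not tested.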

How the data were processed

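Total RNA of hippocampus was sequenced by the authors. Per the submitters' processing notes, Trim Galore, HISAT2, SAMtools, featureCounts and DESeq2 were used with the mouse build GRCm39 (mm39); the sources used here give no versions or settings, strand included. The deposited signal is a size-factor normalized read count per gene and library, made by the authors, and every value was a whole multiple of 1 read (100% of values within 1e-06), so whole reads were recovered. Of 33084 lines, 10770 (32.6%) had no gene name and stayed out of all tests. Library depth ranged from 17771293 to 29252067 reads in the series, and counting intervals cover counting error only.

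Genes that reached 10 in 2 or more of the 24 libraries were tested (18364 of 22314) as log2(value + 1) in limma-trend (limma 3.58.1, R 4.3.3) on the 8 ipsilateral knockout libraries with time as a block. The contrasts within a time, between times, between sides and against WT came from a fit of 12 group means over all 24 libraries. Fold changes on this scale understate those of low genes. P-values are two-sided and adjusted by Benjamini-Hochberg over all genes tested. Only the limma fit of the 8 libraries over both times was tested on simulated data. Alternatives were a pseudocount of 5, no filter, TMM scaling, edgeR 4.0.16 quasi-likelihood and DESeq2 1.42.0 on the recovered reads, the other library sets, no time term, terms for high Xist (over 1000) or choroid plexus markers, a replicate block, and leaving out each library. Array quality weights, values within 1 time and the 24-library fit without labelled NEIL1-KO 6 h replicate 2 were chosen after seeing the data.

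The groups, gene lists and tests were chosen with earlier results of these data known. Named genes were Neil1, Neil2, the 10 highest and 10 lowest called genes of each direction with and without labelled NEIL1-KO 6 h replicate 2 (leaving out predicted names, means under 50 and overlapping groups, and filled up with uncalled genes of smallest p), called genes within 10 Mb of either targeted gene, up to 5 per direction between times and sides, and up to 4 members of each list. Called genes outside this rule (Cntnap1, Arhgap33os, Gm8417) and Tph1, Sag, Rbp3 and Gnb3 were named after their values were seen. Some list members are not reported here. Chromosomes, matched by symbol for 99.9% of genes tested, and promoters came from RefSeq tables of GRCm38.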

Additional observations from a re-analysis of the deposited data

Results flagged for a closer look

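Of 58 groups of 4 libraries checked, 5 had 1 library far from the other 3, and chance flags about 1 in 20 groups. Mbp in NEIL2-KO 6 h replicate 2 was 5411 normalized counts, against 7597 to 8073 in the other NEIL2-KO libraries, and Mag in the same library was 299.2, against 504.1 to 558.7. Esd in NEIL2-KO 6 h replicate 1 was 343.4, against 437.6 to 456.6. Kirrel2 in labelled NEIL1-KO 3 h replicate 1 was 46.05, against 35.9 to 37.03 in the other libraries of its group. Ppp1r3e in labelled NEIL1-KO 6 h replicate 2 was 149.1, against 335.3 to 346.7, which is the library that the comparison was also run without.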

How the results depend on the processing

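Over both times, 13 genes were called. The count was 217 with DESeq2 (11 of the 13 among them), 405 with all 24 libraries in 1 fit, 175 in that fit without labelled NEIL1-KO 6 h replicate 2, 43 with array quality weights, 6 with a choroid plexus term, 4 among libraries with low Xist and 2 with an Xist term. It was 12 to 16 with edgeR, TMM scaling, no filter, no time term or a pseudocount of 5. At 3 h (14 called) it was 0 with 8 libraries, 82 with DESeq2, 546 among low-Xist libraries and 6 with an Xist term. At 6 h (223) it was 1 with 8 libraries, 814 with DESeq2, 21 among low-Xist libraries, 18 with a choroid plexus term and 139 with an Xist term. The test between times (0) gave 32 with DESeq2 and 168 among low-Xist libraries, and the test between sides (0) gave 3 and 1. Leaving out each library in turn gave 1 to 31 over both times, 0 to 19 at 3 h, 12 to 3675 at 6 h, 0 to 1040 between times and 0 to 801 between sides. The cause of these shifts was not tested, and some of these fits held fewer libraries. None of the 13 called genes changed sign over both times. Without labelled NEIL1-KO 6 h replicate 2 the medians of the microglia, astrocyte, endothelium, pericyte, blood and hippocampus marker lists changed sign. The hippocampus median was -0.03 without it against 0.19 with it. The medians of the p53 and cell death list and of the cholesterol synthesis list, both near 0, changed sign as well.

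Same-numbered libraries of the 2 genotypes did not deviate together (correlation over genes -0.0204 at 3 h and -0.174 at 6 h). With 1 correlation per time, this check cannot show whether they share anything beyond a number. A block for the replicate number within each time gave 1 call over both times, 119 at 6 h, 10 at 3 h and 0 between times. Between sides the block was instead the pup, taken as libraries of equal genotype, time and replicate number, and gave 0 calls.

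With 2 libraries per group and time, small differences were not detectable, and few reads limit Neil2, Arhgap33os and Adamdec1.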

Other observations

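Kirrel2, Nphs1 and Arhgap33os are near neighbours on chromosome 7 in the RefSeq annotation of GRCm38, a grouping seen after the values were known. Kirrel2 had a log2 fold change of 1.80 ± 0.16 and Arhgap33os of 4.27 ± 0.55 over both times, and Arhgap33os stood at 14.1 and 26.5 normalized counts at 3 h and 40.8 and 52.3 at 6 h in NEIL2-KO, against 0 to 2.61 in labelled NEIL1-KO and 0 to 3.46 in WT. Nphs1 followed neither of them, with -0.28 ± 0.51 over both times, and in WT it stood at 131 and 109 at 3 h and 306 and 412 at 6 h, close to the NEIL2-KO values. Aplp1 and Arhgap33, which flank these genes, had 0.31 ± 0.16 and -0.0035 ± 0.16 and were not called.

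Gjb6, a gap junction protein of astrocytes, was called at 3 h (1.31 ± 0.22), while the change of its difference between the times was not called (6 h minus 3 h -1.56 ± 0.32, limma adjusted p = 0.225). It stood at 514 and 485 at 3 h and 337 and 254 at 6 h in NEIL2-KO, against 234 and 171 at 3 h and 282 and 430.5 at 6 h in labelled NEIL1-KO.

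In the list of genes for p53 and cell death 1 of 18 was higher and 2 lower at an unadjusted p under 0.05, among cholesterol synthesis genes 1 of 18 was higher, and among antioxidant genes 0 of 16 were higher or lower. Glucocorticoid target genes had 3 of 15 higher and 0 lower (median 0.23). Over all genes tested 6.77% were higher and 3.88% lower by that rule. The p53, cholesterol synthesis and antioxidant counts lay near these shares. No member of these 4 lists was called by limma with 8 or 7 libraries.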
